A study of Mus musculus with 12 samples.

Results

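The genes described here encode 4 proteins stored in the primary (azurophil) granules of neutrophils, Mpo, Elane, Prtn3 and Ctsg, together with Ms4a3, a membrane protein gene expressed at the same stage. Members were the probe sets whose single gene symbol in the array annotation is 1 of these 5 symbols. There were 5 such probe sets, 1 for each gene, among the 45101 on the array. All 5 passed the filter used for testing, which asked for a scaled signal of 100 or more on 3 or more arrays and kept 27041 probe sets.

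The arrays carried spleen RNA of 12 BALB/c mice, with 1 Affymetrix 3' expression array for each mouse. The 4 groups of 3 mice were Il1rn-deficient (ko) at 1 month, wild type (wt) at 1 month, ko at 4 months and wt at 4 months. Il1rn codes for a natural antagonist of IL-1, and its loss is known to cause spontaneous arthritis on this background. The labels give no further detail of the allele. Because whole spleen was measured, fewer cells of a type and less RNA per cell cannot be told apart in any result below.

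Primary granules are the first granules that a developing neutrophil makes, at the promyelocyte stage, and their genes are switched off again as the cell matures. Myeloperoxidase makes hypochlorous acid from hydrogen peroxide and chloride, and neutrophil elastase, proteinase 3 and cathepsin G are related serine proteases that degrade microbial and matrix proteins. Transcripts of these genes therefore come mainly from immature cells, and mature blood neutrophils carry the proteins but little of the RNA. In the mouse, granulocyte precursors are found in bone marrow and also in the red pulp of the spleen.

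Some arrays stood apart before any comparison was made. The highest deposited signal was 33427 to 37921 in 6 arrays, called the low set here. In the remaining 6, called the high set, it was 51247 to 68987. The low set held every ko array at 1 month (3 of 3), whereas each other group held arrays of both sets. The median signal of an array was 113 to 147, and Pearson's r between arrays of a group was at least 0.944. The summed signal of 8 pancreas genes was 149460 in wt at 4 months replicate 2 and 1376 to 2598 in the other 11 arrays. The ratio of 3' to 5' actin signal was highest, at 1.37, in wt at 4 months replicate 1. For the Il1rn probe set with the widest separation, signals were 5.64 to 40.6 in ko and 120 to 163 in wt at 1 month, and 10.1 to 40.8 in ko and 161 to 278 in wt at 4 months. Spleen markers were present in every group: the 4 B cell markers with a probe set (Cd79a, Cd79b, Ms4a1 and Cr2), the 4 T cell markers (Cd3e, Cd3d, Cd4 and Cd8a) and the 4 red pulp macrophage markers (Spic, Vcam1, Cd5l and Hmox1) all passed the filter.

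The 5 genes lie at 4 places in the mouse genome, and only Prtn3 and Elane are neighbours, on chromosome 10, where 3137 bases separate the end of Prtn3 from the start of Elane in GRCm38.p6. Mpo is on chromosome 11, Ctsg on chromosome 14 and Ms4a3 on chromosome 19. The gene IDs of all 5 probe sets matched the RefSeq gene table, as did the transcript accessions of 4, the exception being Prtn3. Because the 5 genes moved together in the arrays, as described below, the 250 bases before each RefSeq start are shown, 5′ to 3′ on the strand of the gene. The capitals mark GGAAGT, the core of the sequence bound by the myeloid transcription factor PU.1 and by other ETS factors.
Mpo (chr11:87793534-87793783, plus strand): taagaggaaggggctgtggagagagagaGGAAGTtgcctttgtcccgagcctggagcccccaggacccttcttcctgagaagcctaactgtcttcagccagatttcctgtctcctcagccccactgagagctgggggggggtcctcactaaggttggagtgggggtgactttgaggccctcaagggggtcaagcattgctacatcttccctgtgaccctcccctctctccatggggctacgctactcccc
Elane (chr10:79886062-79886311, plus strand): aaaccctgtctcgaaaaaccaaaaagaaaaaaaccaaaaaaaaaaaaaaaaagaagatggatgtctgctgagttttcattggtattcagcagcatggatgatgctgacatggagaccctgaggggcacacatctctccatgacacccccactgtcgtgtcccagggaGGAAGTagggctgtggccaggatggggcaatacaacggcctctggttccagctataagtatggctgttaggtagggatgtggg
Prtn3 (chr10:79879417-79879666, plus strand): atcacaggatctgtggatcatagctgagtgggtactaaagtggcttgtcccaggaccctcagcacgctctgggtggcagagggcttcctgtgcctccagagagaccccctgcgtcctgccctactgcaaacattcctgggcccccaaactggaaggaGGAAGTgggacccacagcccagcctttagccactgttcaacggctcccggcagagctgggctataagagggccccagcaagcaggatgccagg
Ctsg (chr14:56102575-56102824, minus strand): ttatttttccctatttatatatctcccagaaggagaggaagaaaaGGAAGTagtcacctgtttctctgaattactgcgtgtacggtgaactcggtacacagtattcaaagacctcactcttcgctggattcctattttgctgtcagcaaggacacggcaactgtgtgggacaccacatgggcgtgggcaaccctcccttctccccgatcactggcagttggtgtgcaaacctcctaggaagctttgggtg
Ms4a3 (chr19:11640852-11641101, minus strand): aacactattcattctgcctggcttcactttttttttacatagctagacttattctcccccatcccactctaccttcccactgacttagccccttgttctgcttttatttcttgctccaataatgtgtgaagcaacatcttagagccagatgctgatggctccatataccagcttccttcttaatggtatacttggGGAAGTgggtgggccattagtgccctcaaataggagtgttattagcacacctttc

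All 5 promoters held GGAAGT once, on the strand of the gene. It began 222 bases before the start in Mpo, 83 in Elane, 93 in Prtn3, 205 in Ctsg and 55 in Ms4a3. Of 32536 distinct promoter windows of the same length, 19.8% held it on either strand and 10.7% on the strand of the gene. The longer form GAGGAAGT, which contains the core, was in 3 of the 5 (Mpo, Elane and Prtn3), against 2.45% of all windows on either strand. The other sequences searched on both strands were AACNG (Myb), held by 4 members and 74.1% of windows, TTNNGCAA (C/EBP), held by 0 members and 9.57% of windows, TGNGGT (Runx), held by 1 member and 40.2% of windows, and TATAA (TATA box), held by 3 members and 22.7% of windows. TATAA lay 31 bases before the start in Elane and 32 in Prtn3. In Ctsg the match was on the opposite strand, 236 to 232 bases before the start. Among the genes compared with the members below, GGAAGT was in 3 of 7 promoters of secondary and tertiary granule genes, 3 of 3 of mature cell genes, 5 of 12 of other azurophil granule genes, 2 of 11 of protease processing genes, 1 of 8 of inhibitors and 1 of 9 of transcription factors. These letters were chosen after the member sequences had been read, and a match is a description of the sequence, not evidence that a factor binds there. Other forms of the C/EBP site were not searched, so 0 matches do not show that such a site is absent.

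All 5 genes were higher in ko than in wt spleens at both ages, and all 5 were lower at 4 months than at 1 month in both genotypes. Levels were highest in ko at 1 month and lowest in wt at 4 months. The ko spleens at 4 months and the wt spleens at 1 month lay between them, at levels close to each other for all members but Prtn3. Signals below are scaled MAS5 signals, in which each array has a trimmed mean of 500, and differences are on the scale of log2(signal + 32) from limma. The added 32 makes differences smaller where signals are low, as they were in wt at 4 months.

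**Figure D1:**
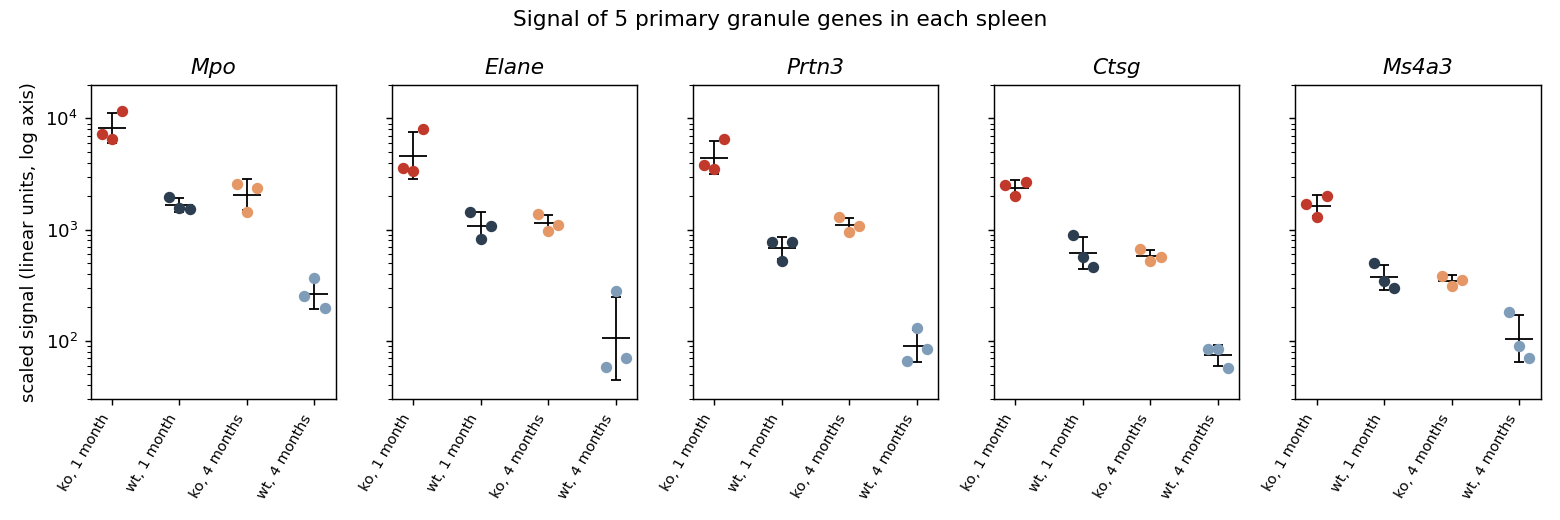
Scaled signal (log axis) of each primary granule gene in the 12 spleens, 1 panel per gene. Points are mice, and the bar with whiskers is the mean ± SD of the log values over 3 mice. In every panel the 3 ko spleens lie above the 3 wt spleens of the same age. In all panels but that of Prtn3, ko at 4 months lies at about the height of wt at 1 month. For Prtn3 the 3 ko spleens at 4 months lie above the 3 wt spleens at 1 month.

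Mpo, which encodes myeloperoxidase, had signals of 7282.5, 6525.2 and 11623 in the 3 ko spleens at 1 month, against 1976.3, 1568.3 and 1523.3 in the wt spleens. At 4 months it had 2595.9, 1432.6 and 2363.8 in ko spleens, against 254, 368 and 198 in wt spleens. The groups did not overlap at either age, and Mpo was the only member above 100 in all 12 arrays. Its difference between ko and wt was 2.27 (SE 0.25, limma adjusted p = 0.000193) at 1 month and 2.82 (SE 0.25, limma adjusted p = 1.3e-05) at 4 months. These correspond to 4.82-fold and 7.05-fold.

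Elane, which encodes neutrophil elastase, had 3622.5, 3364 and 8051.3 in ko spleens at 1 month, against 1433.3, 826 and 1082.6 in wt spleens. At 4 months it had 1370.1, 977 and 1113 in ko spleens, against 58.6, 283 and 70.9 in wt spleens. Replicate 3 stood above the other ko spleens at 1 month, and replicate 2, the array with the pancreas signal, above the other wt spleens at 4 months. At 1 month Elane was higher in ko by 2.05 (SE 0.39, limma adjusted p = 0.0275) and at 4 months by 3.04 (SE 0.39, limma adjusted p = 0.000641). At the younger age its call did not hold without ko replicate 1 (limma adjusted p = 0.0509), without ko replicate 3 (0.203) and without wt replicate 2 (0.199), with differences of 2.23, 1.65 and 1.86. It was also lost with the array set as a block (0.0598), within the low set (0.309), with an offset of 1 (0.0622), without the intensity trend (0.103) and with robust hyperparameters (0.0541), always with a difference of at least 2.05. At 4 months Elane was also called without wt replicate 2.

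Prtn3, which encodes proteinase 3, had 3812.2, 3495.7 and 6568.3 in ko spleens at 1 month, against 782, 525 and 772 in wt spleens. At 4 months it had 1294.9, 946 and 1071.4 in ko spleens, against 66.3, 130 and 85.5 in wt spleens. Its differences were 2.65 (SE 0.24, limma adjusted p = 5.17e-05) at 1 month and 3.19 (SE 0.24, limma adjusted p = 2.19e-06) at 4 months. These were the largest of the 5 genes in the fit of all 12 arrays, but at 4 months Elane exceeded Prtn3 without wt replicate 2 (3.60 for Elane and 3.39 for Prtn3) and within the low set (3.29 and 3.06). In wt at 4 months 2 of 3 signals were under 100 and under the median of their array for Prtn3, and likewise for Elane and Ms4a3, so the 4-month size rests on signals not known to lie above background.

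Ctsg, which encodes cathepsin G, had 2497.5, 2027.9 and 2700.9 in ko spleens at 1 month, against 893, 568 and 463 in wt spleens. At 4 months it had 666, 522 and 573 in ko spleens, against 85.2, 83.9 and 57.6 in wt spleens. All 3 wt signals at 4 months were under 100 and under the median of their own array. Detection calls were not used here, so whether signals of that size lie above background is not known. Ctsg was higher in ko by 1.90 (SE 0.21, limma adjusted p = 0.000226) at 1 month and 2.53 (SE 0.21, limma adjusted p = 6.8e-06) at 4 months.

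Ms4a3 encodes a relative of the B cell protein CD20 and marks granulocyte and monocyte precursors. It had 1685.3, 1307.3 and 2004.5 in ko spleens at 1 month, against 498, 344 and 301 in wt spleens. At 4 months it had 386, 312 and 352 in ko spleens, against 181, 90.0 and 70.9 in wt spleens. Ms4a3 was higher in ko by 2.05 (SE 0.25, limma adjusted p = 0.00054) at 1 month and 1.46 (SE 0.25, limma adjusted p = 0.00632) at 4 months. It was the only member with a smaller difference at 4 months than at 1 month. The call at 4 months was lost within the high set alone, with 2 arrays a group (1.32, limma adjusted p = 0.145).

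At 1 month, 5 of 5 members were called higher in ko, with a median difference of 2.05, against 0.203% of all tested probe sets called higher and a median of -0.04 over them. The 3 ko arrays lay above the 3 wt arrays for all 5, as they did for 7.99% of tested probe sets. At 4 months, 5 of 5 were called higher, with a median of 2.82, against 1.78% of tested probe sets and a median of -0.01. The groups did not overlap for any of the 5, with ko above wt, as for 10.9% of tested probe sets. Over both ages 5 of 5 were called higher, against 2.83% of tested probe sets, with differences of 1.75 (SE 0.18) for Ms4a3, 2.21 (SE 0.15) for Ctsg, 2.54 (SE 0.18) for Mpo, 2.55 (SE 0.28) for Elane and 2.92 (SE 0.17) for Prtn3. The members were chosen with earlier results of these data known, so these counts are a description of the 5 genes.

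The array sets bear on the 1-month comparison, because the ko arrays were all of the low set and 2 of 3 wt arrays of the high set. Within the low set alone, with 3 ko arrays and 1 wt array, the members' differences at 1 month were 2.06 to 2.48, and all but Elane were called. With the set as a block they were 2.17 to 2.68. At 4 months they were 1.74 to 3.29 within the low set, with 1 array a group, and 1.32 to 3.26 within the high set. Where an arm holds 1 array, that array is assumed to vary like the other groups. Without wt replicate 3 at 1 month, or without wt replicate 2 at 4 months, 5 of 5 members were called at each age. Leaving out wt replicate 3 at 1 month sets only high-set wt arrays against only low-set ko arrays. That fit therefore cannot tell the array set from the genotype.

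The decline with age was close to the same size for all 5 genes in ko spleens. From the values above, ko spleens at 4 months lay below ko spleens at 1 month without overlap for every member, as did 18.2% of all tested probe sets. The differences between 4 months and 1 month in ko were -1.97 for Mpo (SE 0.25, limma adjusted p = 0.000111), -1.98 for Elane (SE 0.39, limma adjusted p = 0.00199), -1.99 for Prtn3 (SE 0.24, limma adjusted p = 8.89e-05), -1.98 for Ctsg (SE 0.21, limma adjusted p = 4.25e-05) and -2.13 for Ms4a3 (SE 0.25, limma adjusted p = 8.02e-05). Signals of the 5 genes at 4 months were thus 3.93-fold to 4.39-fold lower than at 1 month. All 5 were called lower, against 9.25% of tested probe sets, and the median over all tested probe sets was 0.10. The ko arrays at 1 month were all of the low set and those at 4 months of both sets. The members' differences ran from -2.42 to -2.02 with the array set as a block. Without ko replicate 3 at 1 month they ran from -1.99 to -1.585.

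In wt spleens the decline had a wider range. It was largest for Elane, at -2.97 (SE 0.39, limma adjusted p = 6.17e-05), and smallest for Ms4a3, at -1.55 (SE 0.25, limma adjusted p = 0.000481). Mpo fell by 2.52 (SE 0.25), Prtn3 by 2.54 (SE 0.24) and Ctsg by 2.61 (SE 0.21). In wt at 4 months all 3 Ctsg signals, and 2 of 3 for Elane, Prtn3 and Ms4a3, were under 100. The sizes and order of the declines thus rest partly on signals not known to lie above background. They ran from -3.35 to -1.82 with an offset of 1 and from -2.69 to -1.35 with 64. When single arrays were left out the decline of Elane ran from -3.53 to -2.64. All 5 were called lower, against 9.67% of tested probe sets, and the age groups did not overlap for any of them, as for 13.2% of tested probe sets with 4 months below 1 month.

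The genotype difference itself was set against age in the interaction term. For Mpo, Elane, Prtn3 and Ctsg it was larger at 4 months than at 1 month by 0.55, 0.98, 0.55 and 0.63, and for Ms4a3 it was smaller, at -0.59. The limma adjusted p was 0.701, 0.645, 0.691, 0.581 and 0.679 in the same order, so 0 of 5 members passed, and 0 had an unadjusted p under 0.05. The 95% intervals ran from -0.20 to 1.30 for Mpo, -0.18 to 2.15 for Elane, -0.18 to 1.27 for Prtn3, -0.01 to 1.27 for Ctsg and -1.35 to 0.17 for Ms4a3. Of all tested probe sets 0.0481% passed. The sizes depend on the offset, because wt signals at 4 months were low. Over the 5 members they ran from -0.41 to 1.34 with an offset of 1 and from -0.70 to 0.73 with 64. A p that misses the threshold does not show that the genotype difference was the same at both ages.

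Between the 2 middle groups, ko at 4 months and wt at 1 month, differences were small for all members but Prtn3. They were 0.29 for Mpo (95% interval -0.24 to 0.82), 0.07 for Elane (-0.75 to 0.89), -0.08 for Ctsg (-0.53 to 0.37) and -0.09 for Ms4a3 (-0.62 to 0.45), and signals of the 2 groups overlapped for these 4 genes. Prtn3 was higher by 0.66 in ko at 4 months (95% interval 0.15 to 1.17, limma adjusted p = 0.0804), with no overlap of the 2 groups, as for 18.5% of tested probe sets with ko at 4 months above wt at 1 month. By limma 0 of 5 members were called and 1 had an unadjusted p under 0.05, while 13.7% of all tested probe sets were called. Prtn3 passed without ko replicate 3 at 1 month (limma adjusted p = 0.0489) and when only the 6 arrays compared were fitted (0.043). The order of the 4 groups was therefore ko at 1 month, then ko at 4 months and wt at 1 month, which overlapped for all members but Prtn3 and differed for none at the threshold, then wt at 4 months.

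**Figure D2:**
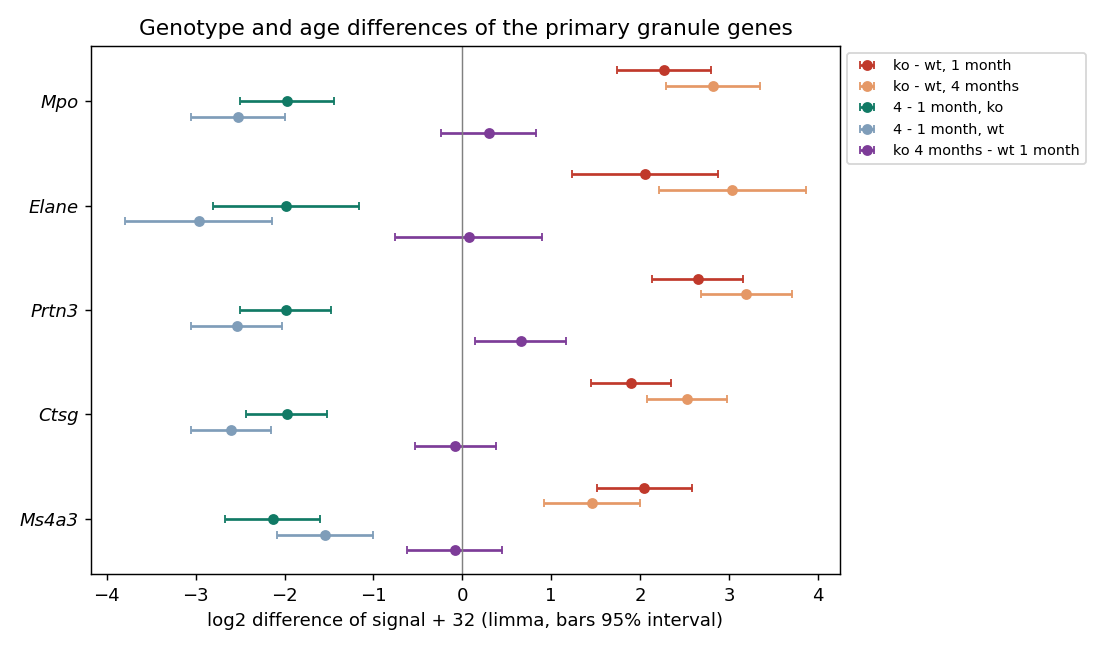
Differences of log2(signal + 32) for each primary granule gene in 5 comparisons of groups, with 95% intervals from limma (12 arrays, 3 mice per group). Genotype differences lie right of 0, from 1.46 to 3.19, and age differences lie left of 0, from -2.97 to -1.55. Differences between ko at 4 months and wt at 1 month run from -0.09 to 0.66. The highest of these is that of Prtn3, whose interval lies right of 0.

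The members also ran together among mice of a group. In ko at 1 month, replicate 3 had the highest signal for 5 of 5 members and replicate 2 the lowest for 5 of 5. In ko at 4 months, replicate 1 was highest and replicate 2 lowest for 5 of 5. In wt at 1 month replicate 1 was highest for 5 of 5, and the lowest signal was in replicate 3 for 3 genes and in replicate 2 for 2. In wt at 4 months the order differed between genes: replicate 2 was highest for Mpo, Elane and Prtn3 and replicate 1 for Ctsg and Ms4a3. The spread over 3 ko mice at 1 month, as a coefficient of variation of the signal, was 14.3% for Ctsg and 52.6% for Elane, with the other 3 genes between. Members measured on 1 array share its RNA, so these shared orders are a description of the arrays.

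**Figure D3:**
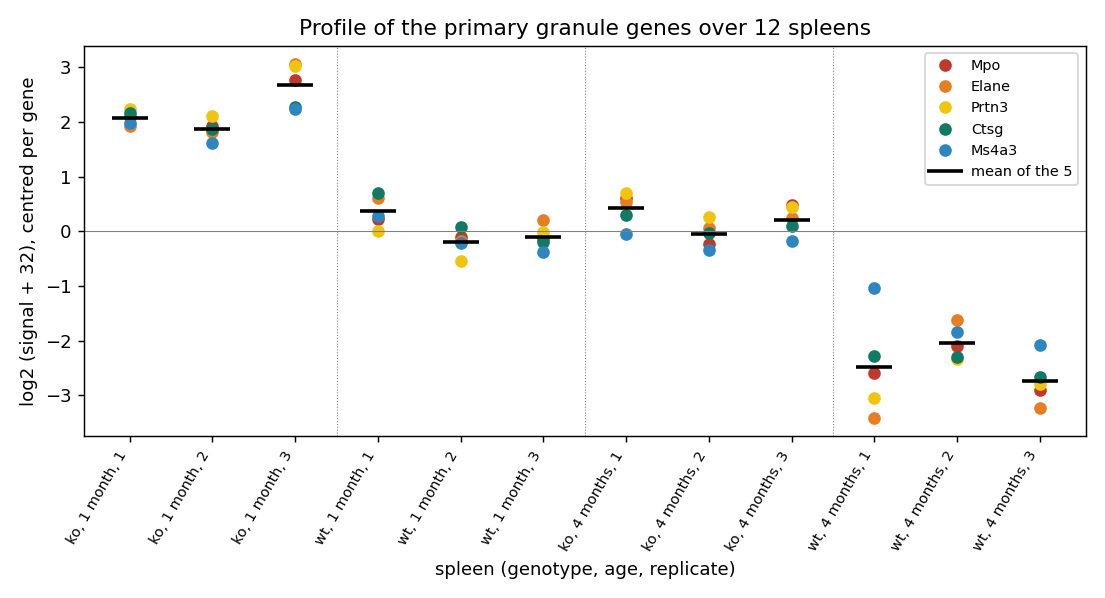
Level of each primary granule gene in each of the 12 spleens, as log2(signal + 32) minus the gene's own mean over the arrays, with black bars for the mean of the 5 genes. The mean of the 5 was 1.87 to 2.67 in ko at 1 month, -0.19 to 0.36 in wt at 1 month, -0.06 to 0.42 in ko at 4 months and -2.73 to -2.04 in wt at 4 months.

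Most genes for other proteins of the same granules were not called. Of 14 other genes for azurophil granule contents, among them lysozymes and lysosomal hydrolases, 10 had a probe set with that single symbol and were tested. At 1 month 1 of 10 was called higher in ko, with a median difference of -0.15, and at 4 months 1 of 10, with a median of 0.15. The called gene at both ages was Fcnb, which encodes the lectin ficolin-B. It had 796, 881 and 1429.5 in ko spleens at 1 month, against 315, 199 and 266 in wt spleens, and 267, 268 and 229 in ko spleens at 4 months, against 127, 123 and 32.1 in wt spleens. It was higher in ko by 1.84 (SE 0.31, limma adjusted p = 0.00986) at 1 month and 1.30 (SE 0.31, limma adjusted p = 0.0351) at 4 months. The 1-month call of Fcnb was lost without ko replicate 3 (limma adjusted p = 0.0998) or wt replicate 2 (0.0948) and within the low set (0.178). Its 4-month call was lost without ko replicate 1, 2 or 3 of that age (0.121, 0.107 and 0.105), without wt replicate 3 (0.117), without ko replicate 2 at 1 month (0.0545), within the high set (0.366), with no filter (0.0666), without the trend (0.0882) and with only the 6 arrays compared (0.09). Lyz2, the lysozyme of macrophages and neutrophils, had -0.19 at 1 month and -0.16 at 4 months, and was not called. The probe sets of Lyz1 and Lyz2 may not tell these near-identical genes apart. Because whole spleen was measured, the part of neutrophil precursors in the signals of the 10 tested genes is not known.

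The proteases are made as inactive precursors, trimmed by the dipeptidyl peptidase that Ctsc encodes, and packed on the proteoglycan serglycin, encoded by Srgn. Of 13 genes for activation, packing and sorting, limma called 0 at 1 month and 0 at 4 months. At an unadjusted p under 0.05 there were 3 and 2, and the medians were -0.01 and 0.01. Over the 27041 tested probe sets, an unadjusted limma p of 0.0423 ranked 3805 at 1 month. At 4 months one of 0.0536 ranked 4456. Counts at an unadjusted p under 0.05, here and below, are therefore a description only. Ctsc was called over both ages, lower in ko by a difference of -0.37 (SE 0.10, limma adjusted p = 0.0468), as were 2.56% of tested probe sets. That call was lost under median centring (limma adjusted p = 0.172), without the trend (0.0984), with no filter (0.0801), with the replicate block (0.0501), within the low set (0.164) and without any of 9 single arrays (0.0574 to 0.131). Srgn had -0.05 at 1 month and -0.07 at 4 months. Serine protease inhibitors that act on these enzymes include SLPI, encoded by Slpi, and the serpins. Of 11 inhibitor genes 8 had a probe set and 7 were tested: limma called 0 at 1 month, with 4 at an unadjusted p under 0.05, and 1 higher at 4 months. That was Slpi, with 11959, 8402.3 and 11891 in ko spleens at 4 months, against 3797.5, 3229.4 and 3771.2 in wt spleens. From 1 to 4 months, 6 of the 7 tested inhibitors were called higher in ko and 4 in wt, with medians of 0.78 and 0.59. Of all tested probe sets 13.6% and 11.8% were called higher. The ko age call of Serpinb9 was lost in 13 of 27 alternatives, and the wt age call of Serpina3n in 8 of 28. Unlike the primary granule genes, Slpi was higher at 4 months, by 1.96 (SE 0.16, limma adjusted p = 2.8e-06) in ko and by 0.83 (SE 0.16, limma adjusted p = 0.00166) in wt. Its call at 4 months was lost within the low set, with 1 array a group (limma adjusted p = 0.0582).

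Transcription factors of the promyelocyte stage were not called between genotypes at either age. Of 12 listed genes 11 were tested, and limma called 0 at 1 month and 0 at 4 months, with 3 and 2 at an unadjusted p under 0.05. Over both ages Cebpb (0.93, SE 0.23, limma adjusted p = 0.0302) and Cebpd (0.66, SE 0.15, limma adjusted p = 0.0236), which encode C/EBP beta and delta, were called higher in ko. Both calls were lost with the array set as a block (limma adjusted p = 0.068 for Cebpb and 0.0516 for Cebpd), within the low set (0.798 and 0.453) and without the trend (0.0727 and 0.0606). Single arrays also ended them: 8 arrays for Cebpb (0.051 to 0.0911 when left out) and 4 for Cebpd (0.0572 to 0.0714). Gfi1, a repressor needed for granulocyte maturation, had a difference of 0.80 (SE 0.25, limma adjusted p = 0.149) at 1 month and -0.09 at 4 months. Spi1, which encodes PU.1, had 0.46 (SE 0.25, limma adjusted p = 0.383) and 0.38 (SE 0.25, limma adjusted p = 0.491). From 1 to 4 months 4 of the 11 were called higher in ko (Cebpa, Irf8, Runx1 and Spi1) and 1 lower (Myb). In wt the same genes were called, in the same directions. Over all tested probe sets the shares called higher were 13.6% in ko and 11.8% in wt, and lower 9.25% and 9.67%. The age call of Spi1 was lost in 10 of 27 alternatives in ko and in 8 of 28 in wt. Myb, an activator of early myeloid genes, had an age difference of -1.40 in ko (SE 0.15, limma adjusted p = 4.25e-05). In wt it had -0.78 (SE 0.15, limma adjusted p = 0.00186). It was not called between genotypes at either age.

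Genes of the granules that follow, made at the myelocyte and later stages, behaved much like the primary granule genes. Of 8 secondary and tertiary granule genes (Ltf, Camp, Ngp, Lcn2, Chil3, Cd177, Mmp8 and Mmp9), 8 were called higher in ko at 1 month, with a median of 2.06, and 7 at 4 months, with a median of 2.38. Between 4 months and 1 month 8 were called lower in ko, with a median of -1.65, and 7 in wt, with a median of -2.16. The wt age call was lost in 19 of 28 alternatives for Mmp8 (limma adjusted p up to 0.36) and in 6 of 28 for Cd177 (up to 0.162). The 4-month genotype call was lost in 8 of 28 for Mmp8 (up to 0.229) and in 2 of 28 for Cd177 (up to 0.194). At 1 month the genotype call was lost in 3 of 27 alternatives for Mmp9, 2 for Mmp8 and 1 for Cd177, and the ko age call in 4 of 27 for Mmp9. The corresponding medians of the 5 primary granule genes were -1.98 and -2.54. All these values come from the same arrays, and the difference between the stages was not tested. Of the 3 genes of mature cells, S100a8 and S100a9, the subunits of calprotectin, were called higher in ko at both ages, with 0.99 (SE 0.15) and 1.23 (SE 0.15) at 1 month and 2.14 (SE 0.15) and 2.20 (SE 0.15) at 4 months. From 1 to 4 months S100a8 fell by 0.69 in ko and by 1.84 in wt, and S100a9 by 0.79 and 1.77. In ko at 1 month S100a8 had 29138 to 32444 and S100a9 32354 to 33435, close to the highest signal on those arrays, 34081 to 37921, so these 1-month differences and ko declines may be understated. Cxcr2, the receptor that draws mature neutrophils to chemokines, was not called in any of these comparisons, at -0.07 at 1 month and 0.51 at 4 months.

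**Figure D4:**
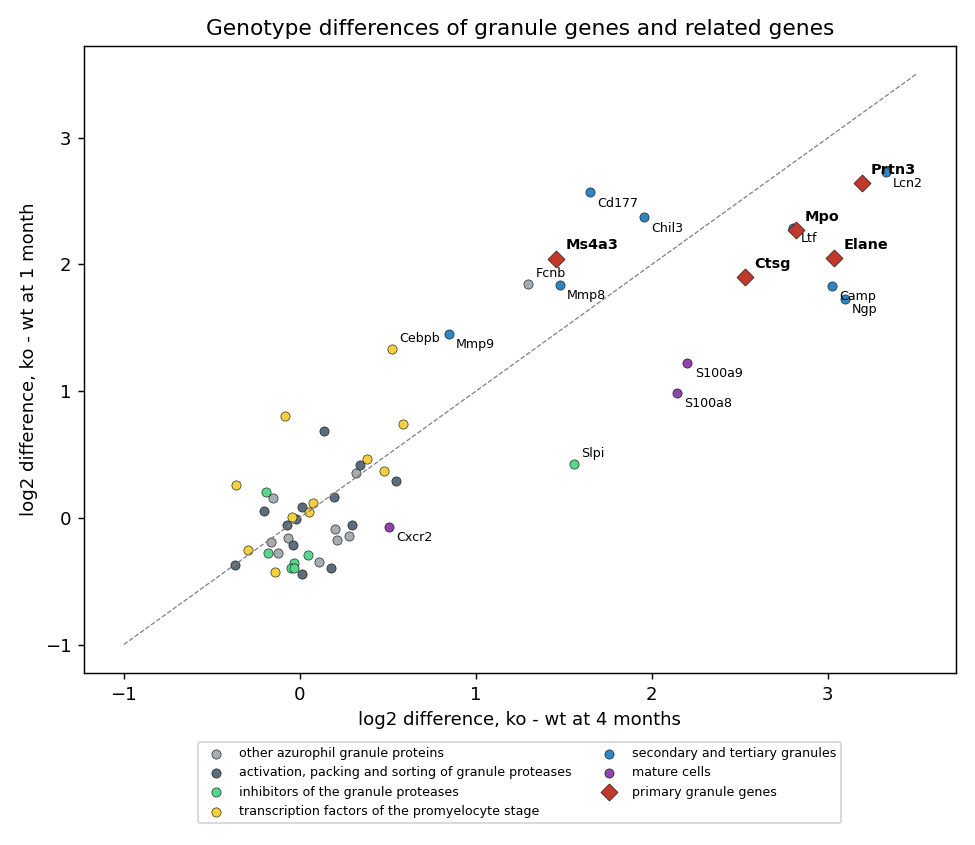
Difference of log2(signal + 32) between ko and wt at 4 months (x axis) and at 1 month (y axis) for the 5 primary granule genes (red diamonds) and for the genes of 6 related lists, 1 point per tested gene. The dashed line marks equal differences at both ages. Primary granule genes and most secondary granule genes lie above 1.4 on both axes, while the genes for activation, packing and sorting lie between -0.45 and 0.68 at 1 month.

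The genes whose pattern was most like that of the members were found by the mean absolute difference, over the 12 arrays, between a gene's centred log2 values and the mean of the members' centred values. Among 22702 probe sets with 1 symbol the smallest values were those of Ltf (0.15), Camp (0.22), Chil3 (0.24), Ngp (0.30), Lcn2 (0.40), Cd177 (0.48), Fcnb (0.49) and S100a9 (0.50), against a median of 1.34. The members themselves, which make up that mean, had 0.12 (Mpo), 0.16 (Ctsg), 0.28 (Elane), 0.28 (Prtn3) and 0.38 (Ms4a3). Ltf, which encodes lactoferrin, thus ran closer to the mean profile than Ctsg, Elane, Prtn3 and Ms4a3 did. It had 8814, 8004.7 and 12734 in ko spleens at 1 month, against 2392.6, 1577.9 and 1955.9 in wt spleens. At 4 months it had 3371.7, 2344.1 and 2827.7 in ko spleens, against 359, 621 and 233 in wt spleens.

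Apart from Prtn3 and Elane, which lie beside each other, no tested gene beside a member was called higher in ko at 1 month or at 4 months. Among the 2 protein-coding genes on either side of each member, 14 had a probe set, of which 10 were tested and 4 (Lpo, Plppr3, Gzme and Gzmd) did not pass the filter. Between ko and wt at 1 month limma called 0 of the 10 higher and 1 lower, and at 4 months 0 in either direction, with 3 at an unadjusted p under 0.05 at each age. Over both ages 1 was called higher, Ms4a6d, which lies 2 genes from Ms4a3 (0.73, SE 0.21, limma adjusted p = 0.0491). Ctsg lies in a cluster of protease genes of mast cells, basophils and lymphocytes. Mcpt4, a mast cell chymase, had 26.8, 17.9 and 16.4 in ko spleens at 1 month, against 320, 311 and 424 in wt spleens, a difference of -2.87 (SE 0.26, limma adjusted p = 5.17e-05), where 0.24% of tested probe sets were called lower. The ko signals are not known to lie above background, and the difference was -4.06 with an offset of 1 and -2.29 with an offset of 64. Mcpt8, a basophil protease, had a difference of 0.68 (SE 0.31, limma adjusted p = 0.301) at 1 month and -0.27 (SE 0.31, limma adjusted p = 0.726) at 4 months.

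Other cell types that can carry transcripts of these genes, or that changed in the same samples, were read from their markers. The summed signal of the 7 mast cell markers was 1081 to 1439 in ko and 1538 to 2248 in wt at 1 month, and 1742 to 2387 in ko and 1608 to 2134 in wt at 4 months. Kit, also a progenitor marker, made up most of the ko sum at 1 month. Below wt without overlap at 1 month were Mcpt4, given above, Cpa3 and Cma1. Cpa3 had 132, 138 and 146 in ko spleens and 371, 275 and 347 in wt spleens. Cma1 had 171, 126 and 135 in ko spleens and 251, 350 and 333 in wt spleens. Kit, Tpsb2, Ms4a2 and Fcer1a overlapped between ko and wt at 1 month. The 2 basophil markers with a probe set summed to 138 to 246 in ko and 83.4 to 151 in wt at 1 month, and to 45.7 to 90.0 in ko and 62.1 to 159 in wt at 4 months, and 1 of them was under 100 in all 12 arrays. The 6 progenitor markers summed to 6462 to 6682 in ko and 6922 to 8310 in wt at 1 month, and to 7302 to 8170 in ko and 7889 to 9472 in wt at 4 months. Cd48 and Sox4 made up most of this progenitor sum. Kit moved otherwise at 1 month, with 877, 633 and 926 in ko spleens and 470, 609 and 741 in wt spleens, which overlapped. The 2 monocyte markers with a probe set summed to 9814 to 13453 in ko and 14089 to 22947 in wt at 1 month, and to 18804 to 22070 in ko and 17266 to 23420 in wt at 4 months. The monocyte sum is nearly all Csf1r, the receptor of macrophage colony-stimulating factor, and the other marker moved otherwise. Ccr2, the chemokine receptor of inflammatory monocytes, had 996, 986 and 959 in ko spleens and 423, 628 and 549 in wt spleens at 1 month, and 714, 942 and 698 in ko spleens and 780, 494 and 687 in wt spleens at 4 months. It was called higher in ko over both ages (0.56, SE 0.13, limma adjusted p = 0.0271) but at neither age alone (0.0573 at 1 month and 0.533 at 4 months), and its part in the members' signals was not tested. The members' signals summed to 16720 to 30948 in ko and 3831 to 5583 in wt at 1 month and 4189 to 6313 in ko and 483 to 954 in wt at 4 months.

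The makeup of the spleen moved with age and genotype at the same time. The 4 erythroid precursor markers with a probe set (Slc4a1, Rhag, Tfrc and Klf1) summed to 61346 to 69498 in ko and 58305 to 75793 in wt at 1 month, and to 42959 to 50047 in ko and 18397 to 30079 in wt at 4 months. The 4 B cell markers summed to 16611 to 19982 in ko and 23383 to 25277 in wt at 1 month, and to 30275 to 36979 in ko and 38199 to 44304 in wt at 4 months. Red pulp macrophage markers summed to 12989 to 15087 in ko and 15458 to 15694 in wt at 1 month, and to 28924 to 32087 in ko and 25729 to 26292 in wt at 4 months. T cell markers summed to 3757 to 4419 in ko and 5064 to 5701 in wt at 1 month, and to 6059 to 7637 in ko and 6803 to 7952 in wt at 4 months. The part of these shifts in the signals of the primary granule genes was not tested.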

How the data were processed

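Spleen RNA of 12 mice was measured on 12 arrays. The authors deposited linear signal intensity for each probe set, made with MAS5 per the submitters' processing notes (version not given in the sources used here). On the values, the 2% trimmed mean was 500 on every array, and arrays were set to 500 again. Then log2(signal + 32) was taken. Of 45101 probe sets, 64 controls were left out, and 27041 with a signal of 100 or more on 3 or more arrays were tested. The model of 4 group means used limma 3.58.1 under R 4.3.3 (lmFit, eBayes with an intensity trend, 8 residual and 8.27 prior degrees of freedom). A call is a Benjamini-Hochberg adjusted p under 0.05 over all probe sets tested, 2-sided.

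Of the probe sets, 34958 had 1 symbol, 932 had several and 9211 had none, and symbols were updated through gene IDs. Outside the members, the probe set with the highest mean stands for a gene. The named genes were the members, of 4 related lists those called in a genotype comparison and up to 3 others per list with the smallest p, the comparison genes, and the 8 genes most like the members. Lyz2, Srgn, Gfi1, Spi1 and Myb are named for their role where the rule did not name them. Cebpa, Irf8, Runx1, Serpinb9 and Serpina3n are named for their age calls. All of these genes were chosen after values were seen. So were the single markers named within the mast cell, progenitor and monocyte sums, the neighbouring genes and the promoter motifs. The members and lists were chosen with earlier results of these data known. Promoters are those of RefSeq for GRCm38.p6. The fit was tested on simulated data. The number of arrays limits the precision, and neither detection calls nor scan dates were used.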

Additional observations from a re-analysis of the deposited data

Results flagged for a closer look

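One gene beside the members differed between the ages in its genotype effect. For Mcpt4, a mast cell chymase gene that lies beyond Mcpt8 from Ctsg, the difference between ko and wt was larger by 3.18 on the log2 scale at 4 months than at 1 month (SE 0.37, limma adjusted p = 0.00596 for the interaction). It had 245, 430 and 341 in ko spleens at 4 months, against 170, 360 and 279 in wt spleens, where ko and wt overlapped. In ko spleens at 1 month all 3 signals, 16.4 to 26.8, were under the median of their array and are not known to lie above background, so the size depends on the offset: it was 4.42 with an offset of 1 and 2.58 with 64. This call was lost within the low array set (limma adjusted p = 0.0556).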

How the results depend on the processing

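Alternatives were quantile normalization, no further scaling, median centring, an offset of 1 or 64, a filter at 200 or none, no intensity trend, robust hyperparameters, the replicate block, the array set as a block, each array set alone, each array left out, only the arrays compared, an adjusted p under 0.10 and a 2-fold limit. For related and comparison genes and Mcpt4 these were added after seeing the data. In the genotype comparisons at each age and over both, and in both age comparisons, 4 or 5 of 5 members were called in every alternative run, with no change of direction. The interaction had 0 members called in each. A fit of only the arrays compared was not run for the interaction or both ages, which use all 12, and the high set holds no ko array at 1 month. Between ko at 4 months and wt at 1 month the count was 0 in the fit reported, 1 at an adjusted p under 0.10 and 1 with only the arrays compared, and it was 0 to 1 when single arrays were left out. These small differences changed sign within the low set, to -0.087 for Mpo, -0.14 for Elane, 0.16 for Ctsg and 0.047 for Ms4a3. When single arrays were left out they ran from -0.12 to 0.26 for Elane, -0.27 to 0.18 for Ctsg and -0.23 to 0.11 for Ms4a3. The cause was not tested. Replicate numbers did not pair the samples: 4 of 18 same-numbered pairs had a correlation of deviations over 0.1, with a range of -0.20 to 0.21. With the replicate block, 5 of 5 members were called in each genotype and age comparison, and 0 in the other two.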
